A study of Sus scrofa with 8 samples.

Results

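The 5 genes described here encode the core of the ISG15 conjugation system: the modifier ISG15, its activating enzyme UBA7, the ligases HERC5 and HERC6, and the protease USP18. They were chosen by function, with earlier results of these data known. All 5 were found once each among the 35683 genes of the count matrices, and their raw UMIs (unique molecular identifiers, each standing for 1 captured transcript) were summed per retina and cell class in 8 pig retinas analysed by single-nuclei RNA sequencing (snRNAseq). The retinas came from female Yucatan minipigs of 3 to 5 months. At week 2, both eyes of 1 animal that received intravitreal AAV2.7m8/CAG-GFP at 5e11 vg per eye (7221) and both eyes of 1 animal that received vehicle (7222) were sequenced. The week 4 retinas were left eyes only, from 2 animals given the vector (7248 and 7249) and 2 given vehicle (7250 and 7251). Every animal, vehicle-injected ones included, had first received intravitreal Vitrase, a hyaluronidase, and was given systemic methylprednisolone before dosing and weekly afterwards. The CAG promoter of the vector is active in many cell types, and its GFP was counted here as EGFP. The study ended its week 4 animals on day 24 or day 28, and the day of each animal is not given in the labels. In the labels every one of the 4 groups is also a separate batch, so that batch and treatment cannot be told apart in any comparison.

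ISG15 is a small ubiquitin-like protein that cells make after interferon. UBA7 activates it as an E1 enzyme, UBE2L6 carries it as an E2 enzyme, and a HERC ligase places it on target proteins, many of them newly made. HERC5 is the main ISG15 ligase of human cells, HERC6 takes that role in mice, and the pig genome holds both. USP18 takes ISG15 off its targets again, and it also binds the interferon receptor chain IFNAR2 and dampens signalling from it. ISG15 is in addition secreted and acts on lymphocytes through the integrin LFA-1.

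In the RefSeq annotation of the pig genome Sscrofa11.1, the build the authors used, ISG15 lay at chr6:63363201-63364211 on the plus strand with 2 exons, and UBA7 at chr13:32330536-32341300 on the minus strand with 25 exons. HERC5 (chr8:130532256-130591158, 24 exons) and HERC6 (chr8:130594941-130665591, 23 exons) were neighbours on the minus strand, 3782 bp apart. USP18 lay at chr5:70183321-70227990 on the plus strand with 11 exons, and its start is marked as partial, so the bases before it were not searched. Interferon-induced genes often carry an element of repeated GAAA in front of the gene, to which a factor complex containing IRF9 binds. The 250 bases before each of the other 4 genes were therefore searched on both strands for GAAANNGAA, counting overlapping matches. The 3 windows that held it are printed from RefSeq, each 5′ to 3′ on the strand of its gene and ending at the base before the gene start, with the matches in capitals (TTCNNTTTC is the same motif on the other strand). They are chr6:63362951-63363200 (plus) for ISG15, chr8:130591159-130591408 (minus) for HERC5 and chr13:32341301-32341550 (minus) for UBA7.
ISG15: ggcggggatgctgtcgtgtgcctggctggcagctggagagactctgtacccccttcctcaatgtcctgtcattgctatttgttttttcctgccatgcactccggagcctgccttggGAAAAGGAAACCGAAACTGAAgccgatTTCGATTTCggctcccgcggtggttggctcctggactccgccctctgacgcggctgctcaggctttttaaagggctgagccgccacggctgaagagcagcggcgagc
HERC5: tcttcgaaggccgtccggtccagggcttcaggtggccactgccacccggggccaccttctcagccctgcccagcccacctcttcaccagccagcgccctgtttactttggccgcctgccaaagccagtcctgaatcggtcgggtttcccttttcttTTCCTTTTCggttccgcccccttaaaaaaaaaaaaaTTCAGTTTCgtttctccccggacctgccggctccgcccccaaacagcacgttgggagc
UBA7: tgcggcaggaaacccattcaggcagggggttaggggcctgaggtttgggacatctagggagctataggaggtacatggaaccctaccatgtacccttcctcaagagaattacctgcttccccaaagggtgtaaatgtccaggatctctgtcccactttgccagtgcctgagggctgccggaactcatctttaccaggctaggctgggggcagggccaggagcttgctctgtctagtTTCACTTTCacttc

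ISG15 held 4 matches, of which the 3 on its own strand overlapped and began 134, 128 and 122 bases before the gene. HERC5 held 2, beginning 94 and 58 bases before it, and UBA7 held 1, beginning 14 bases before it. In RefSeq a gap of 3 bp separates UBA7 from LOC106505605 on the plus strand, so the UBA7 window runs into that gene. The window before HERC6 (chr8:130665592-130665841, minus) held no match, which says only that these letters are not in these bases. Of 19556 protein-coding genes searched the same way, 1311 (6.7%) held at least 1 match.

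Of 388491 barcodes deposited, 350539 nuclei passed the filter on mitochondrial share, and 316078 of them were assigned to 1 of 14 classes by marker genes fixed for each cell type. A class is rod-like or cone-like in the sense of its markers, and is called by its cell type here. Total UMIs per retina ran from 121544835 to 173614051. Of the marker UMIs in a class, its own markers gave 89.2% in rods, 40.8% in Müller cells and 27.3% in astrocytes, the lowest share. Among genes held out of the gate, ELAVL2 was highest in RGCs (467 CPM, UMIs scaled to 1e6 UMIs of the class), PROX1 in horizontal cells (438 CPM) and AQP4 in Müller cells (43.8 CPM). Others were shared by classes, such as MEIS2 (936 CPM in amacrine cells, 603 in cones) and VIM (323 in astrocytes, 82.4 in Müller cells). PTPRC, the leukocyte antigen CD45, reached 294 CPM in microglia and between 0.476 and 2.72 CPM in the other 8 classes tested. No doublets were removed. Of the gated nuclei, 3.34% had a posterior under 0.99, which is near the limit of their class, and 9.83% of the kept nuclei were assigned to no class. Of 368982 distinct barcode sequences, 5.11% occurred in more than 1 of the 32 lanes, and lanes of different retinas shared a median of 0.354% of their barcodes against 0.347% for lanes of the same retina. The 9 classes with at least 20 nuclei in every week 4 retina were tested, from 134350 rods to 1324 RGCs. Microglia were few in the vehicle-injected retinas of week 4, with 62 and 65 nuclei against 1317 and 845 in the AAV-injected ones. The markers used for them are also carried by macrophages. Nuclei of the AAV-injected retinas of week 4 were deeper, for example in Müller cells (medians of 5362 and 5561 against 2283 and 2061 UMIs). In astrocytes the medians were 10096 and 10364 against 4649 and 4659 UMIs. The part of this depth in the fold changes of week 4 was not tested.

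All 5 genes were higher in AAV-injected than in vehicle-injected retinas at both weeks. Over all kept nuclei, ISG15 stood at 45.7 and 77.0 CPM in the left and right AAV-injected eye of week 2 and at 16.4 and 24.4 CPM in the AAV-injected retinas of week 4, against 0.386 to 0.528 CPM in the 4 vehicle-injected retinas. USP18 stood at 60.2, 72.4, 53.6 and 74.7 CPM in the same 4 AAV-injected retinas and at 3.50 to 4.24 CPM in the vehicle-injected ones. Its vehicle level was the one with the most UMIs, 1179 at week 2 and 890 at week 4, whereas ISG15 had 149 and 105. At week 4 the retinas of the 2 arms did not overlap in any of the 45 pairs of gene and class. With 2 retinas per arm other genes can separate too, and the share of all genes without overlap is not given here. edgeR's quasi-likelihood test called 42 of these 45 pairs higher and 0 lower, at an adjusted p under 0.05 (2 against 2 animals, Benjamini-Hochberg over all genes of a class). For comparison, the share of all tested genes called higher was 6.13% in rods, 1.45% in cones, 2.41% in bipolar cells, 1.77% in amacrine cells, 2.79% in horizontal cells, 2.14% in RGCs, 10.8% in Müller cells, 8.11% in astrocytes and 5.81% in microglia. The median log2 fold change of the members with UMIs in both arms ran from 3.96 in astrocytes to 6.64 in horizontal cells. It leaves out ISG15 and UBA7 in RGCs and ISG15 and USP18 in microglia, where the vehicle-injected retinas held 0 UMIs. The median of all tested genes lay between -0.01 and 0.17. The spread behind these p-values comes from 2 animals per arm, and edgeR estimates it for a gene partly from the other genes of the class.

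**Figure D1:**
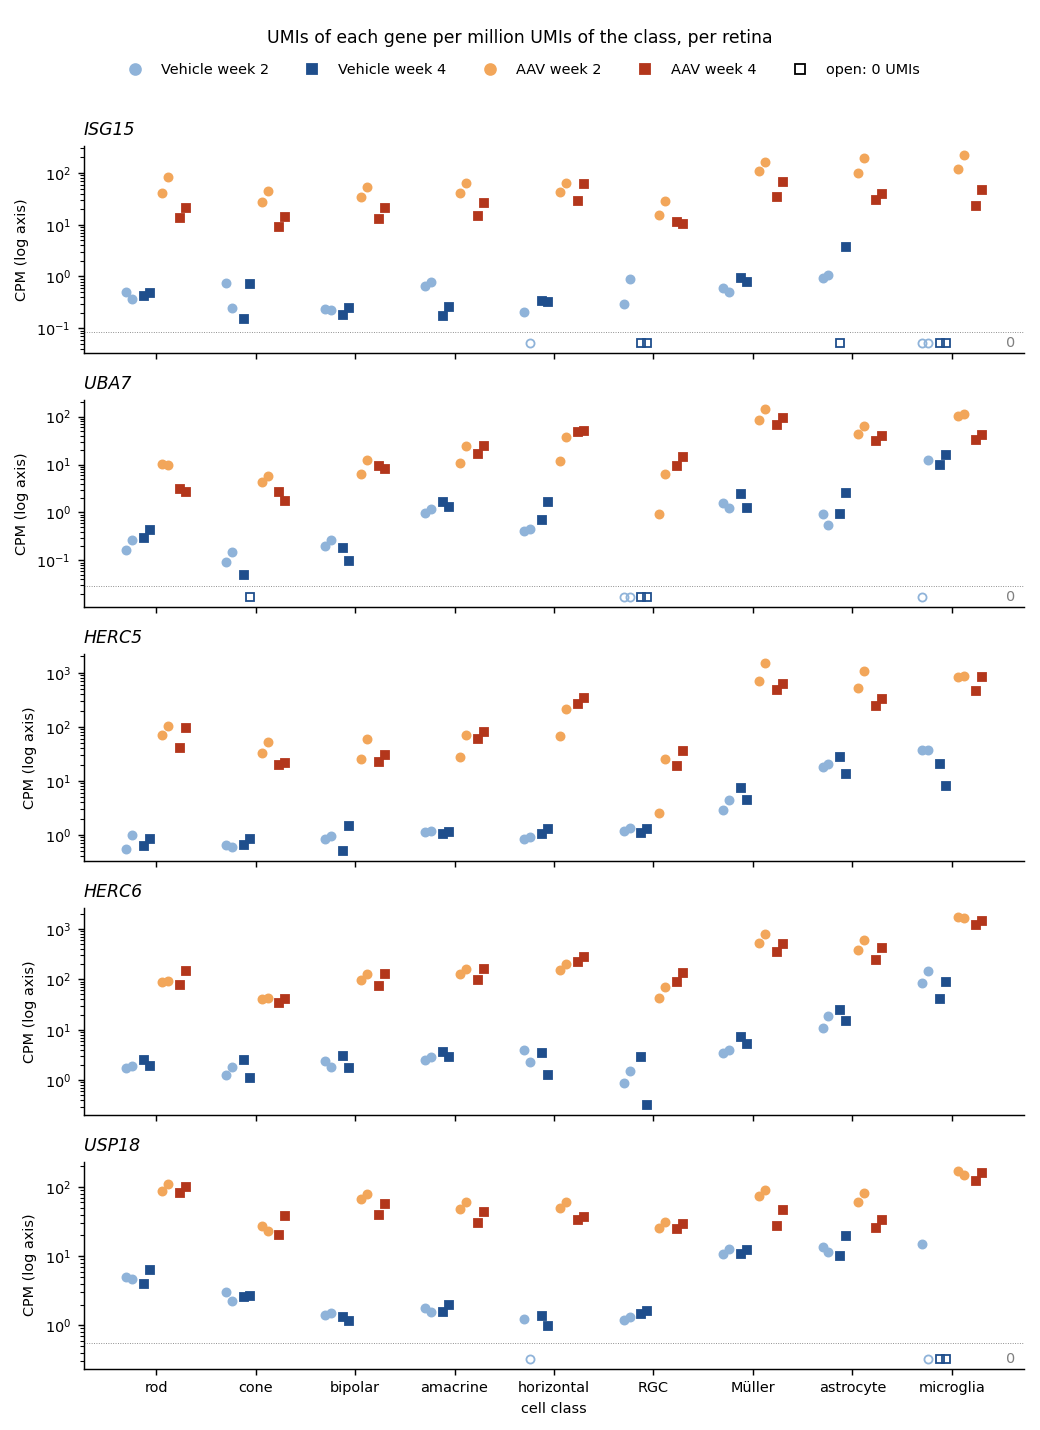
Level of each gene in each of the 8 retinas, in CPM (log axis), by cell class. Within a class the points are, from left to right, the 2 vehicle-injected retinas of week 2, the 2 of week 4, and then the AAV-injected retinas of week 2 and of week 4. Open symbols under the dotted line are retinas with 0 UMIs. In every panel and class the AAV-injected retinas sit above the vehicle-injected ones of the same week.

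ISG15, the modifier itself, was called higher at week 4 in 8 of 9 classes. In Müller cells, the glia that span the retina, it stood at 34.0 and 68.3 CPM in the AAV-injected retinas and at 0.936 and 0.768 CPM in the vehicle-injected ones. In rods the values were 13.7 and 21.0 against 0.422 and 0.472 CPM. The arms were thus far apart in both classes, with log2 fold changes of 5.84 ± 0.451 (SE, adjusted p = 0.00026) in Müller cells and 5.39 ± 0.351 (adjusted p = 0.00189) in rods. In RGCs, the output neurons of the retina, 65 UMIs were counted in the AAV-injected retinas (11.4 and 10.5 CPM) and 0 in the vehicle-injected ones. Against a limit of 3 UMIs over both vehicle-injected retinas, ISG15 was at least 21.4-fold higher there (adjusted p = 0.000232). Horizontal cells, interneurons of the outer retina, stood at 29.1 and 62.0 against 0.343 and 0.324 CPM. With 2 UMIs in the vehicle-injected retinas their CPM ratio of 135 has a counting interval of 37.1 to 1122. Microglia were the exception, with 229 UMIs (23.4 and 47.2 CPM) against 0, a level at least 2.52-fold higher that did not pass the test (adjusted p = 0.0738). The vehicle-injected microglia held too few UMIs for a narrower bound, and the call was made when low counts were not filtered (adjusted p = 0.00251).

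The order of ISG15 among the tested classes of the AAV-injected retinas was read between neighbours in rank. At week 4, Müller cells (mean 51.1 CPM), horizontal cells (45.6), microglia (35.3) and astrocytes (34.4) overlapped from one to the next, and astrocytes lay above amacrine cells (20.7). Microglia (23.4 and 47.2 CPM) nonetheless overlapped amacrine cells (14.6 and 26.8 CPM). Amacrine cells, rods, bipolar cells, cones and RGCs (10.9 CPM) again overlapped from one neighbour to the next. At week 2, microglia (170 CPM), astrocytes (145) and Müller cells (137) lay above rods (61.7 CPM), and RGCs (21.9 CPM) had the lowest mean at both weeks.

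UBA7, the E1 enzyme, was called higher in 8 of 9 classes and had the fewest UMIs of the 5 genes in the AAV-injected retinas of week 4 (4124 over all kept nuclei). Its level was uneven across classes. Müller cells held 68.5 and 92.0 CPM against 2.43 and 1.25 CPM in the vehicle-injected retinas, a log2 fold change of 5.41 ± 0.293 (adjusted p = 5.51e-05). Rods held 3.11 and 2.73 against 0.292 and 0.425 CPM, which is 3.15 ± 0.344 on the log2 scale (adjusted p = 0.00814). Photoreceptors were the lowest of the tested classes, with means of 2.92 CPM in rods and 2.22 CPM in cones. Above them lay bipolar cells (8.67), RGCs (9.42 and 14.7 in the retinas), amacrine cells (20.7), horizontal cells (48.7) and Müller cells (80.3). Astrocytes (35.2) and microglia (36.8) lay between amacrine and horizontal cells and overlapped each other. Each of the other steps between neighbours was free of overlap. Müller cells gave 23.2% of all UBA7 UMIs of the week 4 AAV-injected retinas and 4.13% of all UMIs. At week 2 these shares were 46.8% and 9.93%. In cones a single vehicle UMI stood against 84, a CPM ratio of 82.6 with a counting interval of 14.4 to 3301. In RGCs 71 UMIs stood against 0, a level at least 23.4-fold higher (adjusted p = 0.000273). Microglia held 33.1 and 40.5 against 10.0 and 16.1 CPM, with 3 vehicle UMIs, and the ratio of 2.71 (counting interval 0.916 to 13.2) did not pass the test (adjusted p = 0.188).

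The UBA7 locus is crowded in the RefSeq annotation. The reads were counted on gene models with Ensembl identifiers, whose spans were not compared with those of RefSeq. In RefSeq the span of UBA7 overlaps TRAIP on the same strand over 8965 bp. It also overlaps FAM212A, which the files list as INKA1, on the other strand over 1632 bp. CDHR4 begins 1005 bp beyond its end on the same strand. TRAIP was called higher at week 4 in 1 of the 8 classes where it could be tested (median log2 fold change 0.55), CDHR4 in 8 of 9 classes (4.89), and INKA1 in the 1 class tested (6.79). AGRN, 1805 bp from ISG15 on the same strand, was called higher in 5 of 9 classes (median 1.49). How far reads that run past a gene's end were counted for its neighbour was not tested.

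HERC5 and HERC6 were called higher in all 9 classes tested. Among the 41 pairs with UMIs in both arms, HERC5 in horizontal cells showed the largest fold change, where 263 and 334 CPM stood against 1.03 and 1.29 CPM. The log2 fold change was 7.90 ± 0.258 (adjusted p = 9.16e-07). In Müller cells HERC5 reached 471 and 631 against 7.30 and 4.41 CPM (6.54 ± 0.269, adjusted p = 1.79e-05), and in rods 40.7 and 94.2 against 0.617 and 0.850 CPM (6.67 ± 0.553, adjusted p = 0.00423). The AAV-injected retinas of week 4 differed by over 2-fold in rods, and the vehicle-injected ones lay far below both. In microglia HERC5 held 467 and 842 CPM against 20.1 and 8.05 CPM. The latter rest on 3 UMIs, and the CPM ratio of 47.1 has a counting interval of 16.1 to 228. The lowest AAV levels of HERC5 at week 4 were in cones (20.0 and 21.7 CPM), bipolar cells (22.0 and 29.6) and RGCs (18.8 and 36.3).

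HERC6 was above every other class in microglia, with 1208 and 1433 CPM in the AAV-injected retinas of week 4 against 40.2 and 88.6 CPM in the vehicle-injected ones (log2 fold change 4.49 ± 0.309, adjusted p = 2.7e-06). Among the tested classes, microglia thus had the highest HERC6 level in both arms of week 4. Müller cells (351 and 494 CPM), astrocytes (243 and 421) and horizontal cells (216 and 272) followed in overlapping order among these classes. Cones (33.4 and 40.6) lay below all other tested classes. In RGCs HERC6 stood at 87.7 and 135 against 2.92 and 0.318 CPM, and its log2 fold change of 6.20 ± 0.392 had the smallest adjusted p among all 45 pairs (5.79e-07). The RGC vehicle values rest on 8 and 1 UMIs. Their ratio, 7251 against 7250, was 0.109 with a counting interval of 0.00246 to 0.813. The other HERC genes did not follow. HERC1, HERC2 and HERC4 were called in 0 of 9 classes each, with log2 fold changes between -0.06 and 0.45, and HERC3 was lower in Müller cells (-0.66, adjusted p = 0.0112), astrocytes (-0.69, adjusted p = 0.0352) and microglia (-0.95, adjusted p = 0.0248).

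USP18, which removes ISG15 from proteins, had a different class pattern from the enzymes that attach it. Among the tested classes, rods were second only to microglia. They held 82.8 and 99.3 CPM in the AAV-injected retinas of week 4 against 3.93 and 6.23 CPM (log2 fold change 4.29 ± 0.255, adjusted p = 0.00134). Microglia held 121 and 158 CPM against 0 UMIs, at least 10.2-fold higher (adjusted p = 0.000358). Microglia and rods each lay above the next tested class in the order without overlap. Rods gave 57.5% of all USP18 UMIs of these retinas and 40.2% of all UMIs, while they gave 8.68% of the UBA7 UMIs. The glia stood apart through their vehicle level. Müller cells held 27.5 and 46.5 CPM against 10.8 and 12.3 CPM, and astrocytes 25.8 and 33.3 against 10.1 and 19.5 CPM, whereas the vehicle-injected retinas of week 4 held 0.971 to 6.23 CPM in the neuronal classes. The log2 fold change was 1.64 ± 0.269 in Müller cells (adjusted p = 0.00629) and 0.99 ± 0.345 in astrocytes, which missed the threshold (adjusted p = 0.0894). In bipolar cells it was 5.31 ± 0.255 (39.7 and 57.3 against 1.31 and 1.16 CPM, adjusted p = 0.000108), the largest for this gene among the classes with vehicle UMIs.

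**Figure D2:**
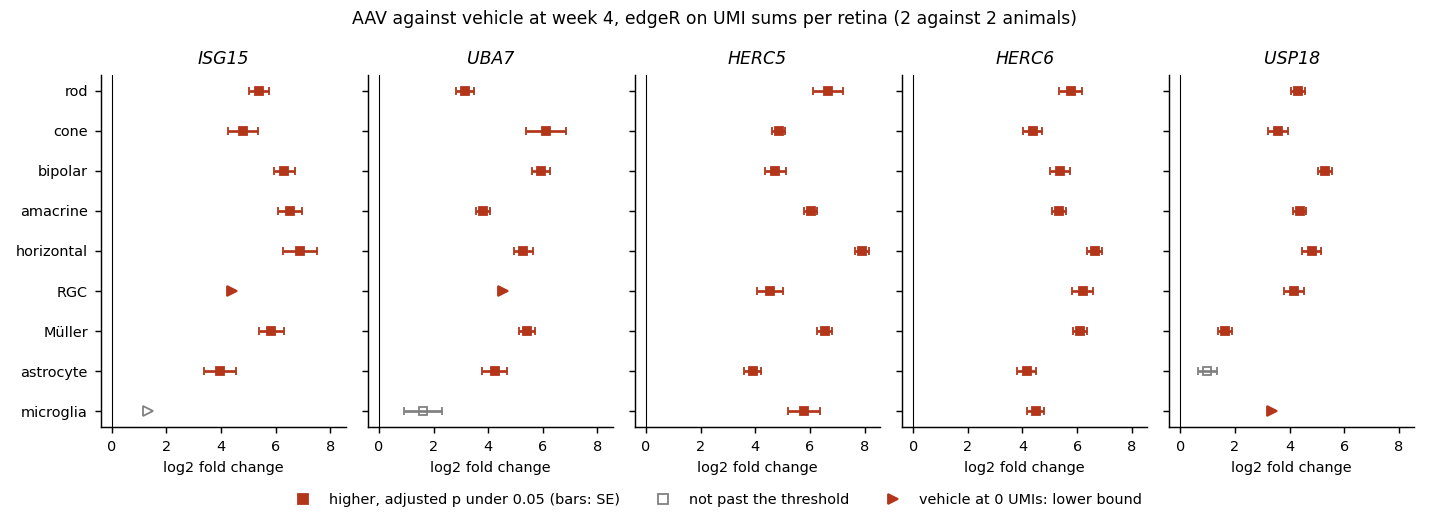
Log2 fold change of AAV-injected against vehicle-injected retinas at week 4 for each gene and class, from edgeR on UMI sums (2 against 2 animals), with bars for the SE. Filled symbols passed an adjusted p of 0.05, grey open symbols did not, and triangles are lower bounds where the vehicle-injected retinas held 0 UMIs. Among the pairs with UMIs in both arms, the smallest change is that of USP18 in astrocytes (0.99) and the largest that of HERC5 in horizontal cells (7.90).

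At week 2 each arm was 1 animal, so the values carry no test. In all 45 pairs both AAV-injected eyes lay above both vehicle-injected eyes, and the CPM ratio of the summed eyes exceeded 2. For the separation of the eyes, which come from 1 animal per arm, the share over all genes is not given here. Among all genes with at least 10 UMIs over the 4 retinas, the share over 2-fold higher was 6.25% in rods, 5.48% in cones, 4.37% in bipolar cells, 5.17% in amacrine cells, 7.15% in horizontal cells, 5.96% in RGCs, 7.56% in Müller cells, 5.92% in astrocytes and 15.6% in microglia. ISG15 had the largest median ratio of the set (134), and its ratios ran from 33.4 in RGCs to 514 in horizontal cells, where 615 UMIs stood against 1 (counting interval 91.8 to 20315). In microglia 95 ISG15 UMIs stood against 0, at least 16.2-fold higher. UBA7 ratios ran from 15.9 to 85.7, and in RGCs, with 25 UMIs against 0, the level was at least 8.69-fold higher. HERC5 stood at 2.91 and 4.43 CPM in vehicle-injected and at 712 and 1495 CPM in AAV-injected Müller cells, a ratio of 334 (278 to 406). Müller cells then gave 58.3% of all HERC5 UMIs of the AAV-injected retinas, with 9.93% of all UMIs. The smallest HERC5 ratio was 9.80 in RGCs. HERC6 ratios ran from 14.3 in microglia, where the vehicle-injected eyes already held 82.9 and 148 CPM, to 187 in Müller cells. USP18 again had its smallest ratios in glia, 5.42 in astrocytes and 7.29 in Müller cells. These intervals cover counting error only.

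The 2 eyes of animal 7221 differed, although both had received the vector. ISG15 was higher in the right than in the left eye in 9 of 9 classes with counting intervals above 1 (median ratio 1.60), and HERC5 in 8 of 9 (median 2.10). In RGCs HERC5 stood at 2.57 CPM in the left and 25.1 CPM in the right eye, from 11 and 83 UMIs, a ratio of 9.75 (5.18 to 20.3). The interval lay above 1 for UBA7 and for HERC6 in 6 classes each and for USP18 in 5, with 1 class below. The right eye also had the larger share of nuclei with an EGFP UMI, 14.7% against 7.78%. At week 4, HERC6 was higher in 7249 than in 7248 in 9 of 9 classes (median ratio 1.54). The interval of this ratio lay above 1 for HERC5 in 8 classes, ISG15 in 7, USP18 in 6 and UBA7 in 2. Over all kept nuclei UBA7 was lower in 7249, with a ratio of 0.818 (0.769 to 0.87). Animals 7249 and 7248 had 6.25% and 6.02% of nuclei with an EGFP UMI. In the vehicle-injected eyes of 7222 the interval of the ISG15 ratio spanned 1 in 7 of the 8 classes where it could be computed. It rested on few UMIs, for example 7 and 7 in bipolar cells (0.295 to 3.29), too few to show that the eyes agree. Vehicle-injected animals also differed: for HERC6, 7251 against 7250 at week 4, the interval lay below 1 in 3 of 9 classes and spanned it in 6 (median ratio 0.609). The part of transgene level in the differences between retinas was not tested.

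Between weeks, ISG15 was the gene whose level was most regularly lower at week 4. In 8 of 9 classes both AAV-injected retinas of week 4 lay below both of week 2, with ratios of mean CPM from 0.208 in microglia to 0.498 in RGCs, and horizontal cells overlapped (0.845). USP18 was lower without overlap in 5 classes and overlapped in 4, rods among them (ratio 0.9). HERC5 was lower without overlap in 3 classes, Müller cells (0.5), astrocytes (0.355) and cones (0.482), and higher in horizontal cells, where it stood at 68.5 and 214 CPM at week 2 and at 263 and 334 CPM at week 4. HERC6 was lower in Müller cells (0.640) and microglia (0.782) and higher in horizontal cells (1.36) and RGCs (1.96). UBA7 stood at 0.291 times its week 2 level in rods, at 3.31 times in RGCs and at 2.00 times in horizontal cells. Horizontal cells and RGCs were thus the classes where the AAV levels of HERC6 and UBA7 were higher at week 4 without overlap and that of ISG15 was not. UBA7 in the RGCs of week 2 rested on 4 and 21 UMIs. In horizontal cells its vehicle mean was also higher at week 4, 1.15 against 0.432 CPM, from 7 and 4 UMIs. Set against vehicle, its log2 difference between weeks there was -0.46 ± 0.746. That of HERC6 was 0.86 in each of these classes, and none of these differences was called. The weeks were sampled in different animals and batches, and with both week 2 retinas from 1 animal the ratios of AAV levels carry no test. The share of all genes that separate between the weeks is not given here, so these counts have no background and describe the 5 genes alone.

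**Figure D3:**
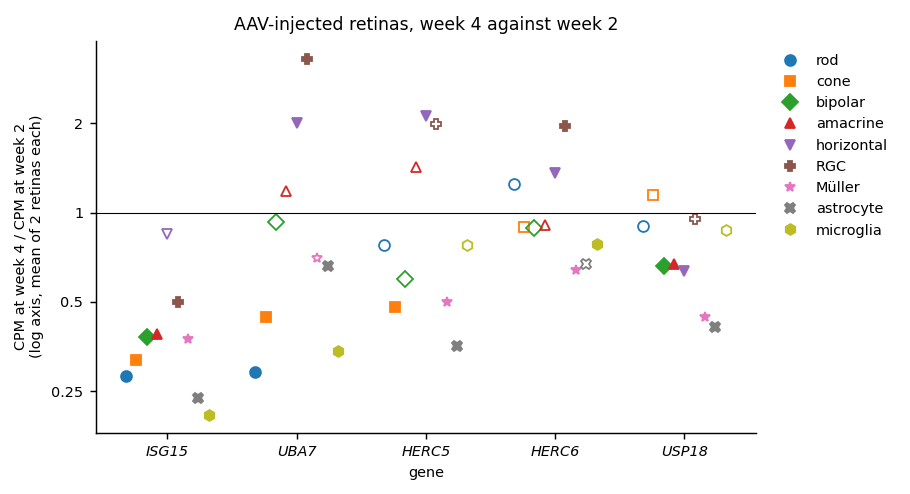
Mean CPM of the 2 AAV-injected retinas of week 4 divided by that of the 2 AAV-injected eyes of week 2, for each gene and class (log axis). Filled symbols are classes in which the week 4 retinas did not overlap those of week 2, and open symbols those in which they did. ISG15 lies below 1 throughout, from 0.208 to 0.845, and the other genes spread on both sides of 1.

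The difference between weeks was tested as the interaction of treatment and week over the 6 animals. With 1 animal per arm at week 2, the spread in this fit, and with it every SE and p-value, comes from the week 4 animals alone and is assumed to hold at week 2. edgeR called 0 of the 45 pairs, 10 had an unadjusted p under 0.05, and DESeq2 called 4. These 4 were HERC5, HERC6 and ISG15 in Müller cells and UBA7 in rods, all with a smaller fold change at week 4. The lowest adjusted p from edgeR was that of HERC5 in Müller cells, 0.0583, with a log2 difference of -1.80 ± 0.399. HERC6 in Müller cells followed with -1.41 ± 0.371 (adjusted p = 0.0913), and UBA7 in rods with -2.27 ± 0.538 (adjusted p = 0.107). Among the 41 pairs without a group at 0, 28 differences were negative. The share of all genes that edgeR called in either direction was 0.106% in rods, 0.0345% in cones, 0.0357% in bipolar cells, 0.0867% in amacrine cells, 0.0405% in horizontal cells, 0.177% in RGCs, 2.51% in Müller cells, 1.21% in astrocytes and 2.32% in microglia. Without animal 7248 the fit called 2 of the 45 pairs and without 7249 it called 7, with a lone AAV-injected animal of week 4 in each of these fits. In Müller cells of the AAV-injected retinas the depth moved with the week as well. They held 1643 and 651 Müller nuclei at week 4, with medians of 5362 and 5561 UMIs. At week 2 these were 3663 and 4927 nuclei with medians of 2585 and 3630 UMIs. The vehicle-injected retinas held 4157 and 4381 Müller nuclei at week 4 (medians of 2283 and 2061 UMIs) and 5883 and 4575 at week 2 (2522 and 2738 UMIs). The part of depth in these differences was not tested.

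Since HERC5 and HERC6 are neighbouring genes with related products, their UMIs were set against each other within each retina. UMIs are not adjusted for gene length, so the ratio is compared between classes and not read as a difference in level. Müller cells had 1.33 and 1.90 HERC5 UMIs per HERC6 UMI in the left and right eye of 7221 and 1.34 and 1.28 in 7248 and 7249. In RGCs the ratios were 0.0611, 0.352, 0.215 and 0.269, and in bipolar cells 0.271, 0.473, 0.304 and 0.235. The ratio was thus lower in these neurons than in Müller cells in 4 of 4 retinas. Microglia lay between them with 0.488, 0.513, 0.386 and 0.588, and horizontal cells had 0.448 and 1.04 at week 2 and 1.22 and 1.23 at week 4. Over the 9 classes, the lowest ratio in 7249 was the 0.235 of bipolar cells and the highest the 1.28 of Müller cells.

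**Figure D4:**
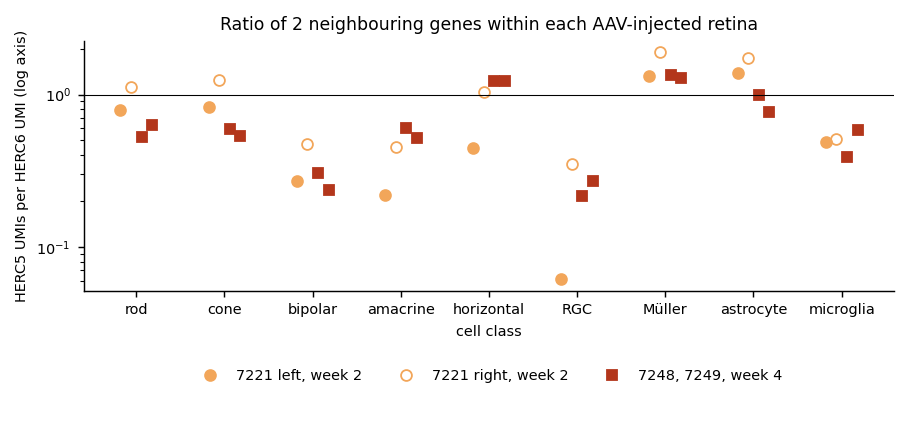
HERC5 UMIs per HERC6 UMI in each AAV-injected retina, by cell class (log axis). Filled and open circles are the left and right eye of 7221 at week 2, and the other symbols are 7248 and 7249 at week 4. Müller cells lie above the line at 1 in all 4 retinas, and bipolar cells and RGCs below it in all 4.

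RNA of other cells in a class was examined through marker genes. At week 4 the summed level of 11 microglia markers was 21.6 and 30.7 CPM at its lowest and highest in AAV-injected rods against 14.8 to 15.9 CPM in vehicle-injected ones, with 7 of 10 tested genes called higher and none at 0. That of 11 T and NK cell markers was 20.2 to 29.6 against 8.45 to 9.16 CPM in rods, with 8 of 11 called higher. In Müller cells the microglia list stood at 33.2 to 37.3 against 28.3 to 34.2 CPM (3 of 5 tested called higher, TREM2 at 0 in the AAV-injected and C1QA, C1QC and CD163 at 0 in the vehicle-injected retinas). In bipolar cells the microglia list stood at 35.8 to 38.6 against 15.2 to 23.7 CPM (5 of 10 tested called higher). In cones the microglia list reached 34.3 CPM against 5.67 to 6.63 CPM (5 of 9 tested called higher) and the T and NK cell list stood at 21.7 to 33.2 against 7.36 to 8.61 CPM (4 of 8). Within microglia the T and NK cell list stood at 231 to 295 against 30.1 to 64.4 CPM (2 of 4). Immune markers thus moved with treatment at week 4 in these classes. At week 2 the microglia list stood at 11.9 to 16.3 against 11.2 to 11.6 CPM in rods and at 23.6 to 29.8 against 29.8 to 31.5 CPM in Müller cells. The T and NK cell list of week 2 was higher without overlap in rods (9.09 to 9.15 against 7.14 to 7.48 CPM). So it was in Müller cells (15.5 to 15.8 against 11.9 to 12.7 CPM) and microglia (72.8 to 108 against 15.1 to 43.1 CPM). The same held in bipolar cells (9.5 to 9.91 against 8.67 to 8.88 CPM) and amacrine cells (15.4 to 15.9 against 14.5 to 14.7 CPM). It also held in horizontal cells (198 to 208 against 163 to 192 CPM) and RGCs (26.9 to 30.8 against 19.0 to 24.3 CPM). In these AAV-injected eyes CD2 and CD3D were at 0 in horizontal cells, CD2, CD3D and CD8A in RGCs, and CD247, CD3D, CD3E, CD8A and THEMIS in microglia. T and NK cell nuclei numbered 5 and 15 in the AAV-injected and 0 and 1 in the vehicle-injected eyes. Whether the list stands for RNA of T and NK cells in each class was not tested. In cones and astrocytes the arms overlapped. The part of such RNA in the levels of the 5 genes was not tested. Rod markers in Müller cells went the other way, with 6 of 8 called lower and 556 to 566 against 1136 to 1202 CPM at week 4. In a stricter gate of 289415 nuclei the same 42 pairs were called higher.

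The UMIs of a gene could be held by few or by many nuclei of a class. When every nucleus was thinned to 1000 UMIs, leaving out shallower ones, 65.3% and 73.2% of microglia in 7248 and 7249 carried a HERC6 UMI, against 8.51% and 5.56% in the vehicle-injected retinas (4 of 47 and 3 of 54 nuclei). Without thinning the shares were 84.2% and 95.7% against 6.45% and 12.3%. In Müller cells a HERC5 UMI was found in 35.8% and 43.8% of thinned nuclei against 0.600% and 0.340%, and without thinning in 80.0% and 88.5% against 1.15% and 0.822%. Rods carried USP18 in 8.19% and 9.41% of thinned nuclei against 0.298% and 0.689%, and UBA7 in 0.268% and 0.205% against 0.0132% and 0.0399%. In RGCs the thinned shares of ISG15 were 0 of 144 and 2 of 135 nuclei, and 0 of 144, by the limit of 3 counts, allows up to 2.08% of nuclei with a UMI at this thinned depth. RGC nuclei are deep, and without thinning 20.7% and 17.0% of them carried an ISG15 UMI, against 0 of 142 and 0 of 184 vehicle nuclei. The share that free RNA gives in the AAV-injected retinas was not measured, and the vehicle-injected retinas, with few transcripts of these genes, do not give it.

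The vector's own transcript allowed nuclei with and without an EGFP UMI to be compared inside a retina, where batch is shared. An EGFP UMI was found in 2 of 177817 vehicle nuclei. Over the 180 combinations of gene, class and AAV-injected retina the median ratio of CPM in nuclei with EGFP to that in nuclei without it was 1.11. It was above 1 in 27 of 36 combinations for ISG15, 24 for UBA7, 25 for HERC5, 23 for HERC6 and 14 for USP18. The counting interval lay above 1 in 56 and below 1 in 7. The intervals that left 1 thus lay mostly on the side of higher levels in nuclei with EGFP. They cover counting error only. The share of all genes with such intervals is not given here, so these counts have no background and describe the genes of the set alone. With EGFP-containing nuclei left out the same 42 pairs were called higher at week 4. The ratios differed among genes and classes. ISG15 in microglia of the right eye of 7221 had the highest ratio that could be computed, 3.28 (counting interval 1.82 to 5.77). This ratio rested on 9 EGFP-positive nuclei with 21 UMIs. The left eye gave 2.91 and the week 4 retinas 1.45 and 1.03, with intervals that spanned 1. The median ratio of UBA7 was 1.34. In amacrine cells UBA7 was higher in EGFP-positive nuclei of 4 of 4 retinas (ratios of 1.54 to 1.65), and HERC5 likewise (1.95 and 2.18 at week 2, 1.31 and 1.15 at week 4). HERC6 was higher in EGFP-positive cones of 4 of 4 retinas (1.31 to 2.02). USP18 was the gene with a median ratio under 1 (0.964), and in Müller cells its ratio was under 1 in 4 of 4 retinas (0.643 to 0.981). EGFP-positive nuclei were deeper, for example with a median of 7103 against 4960 UMIs in amacrine cells of the left eye of 7221 (361 and 3650 nuclei). The part of depth in these ratios was not tested.

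**Figure D5:**
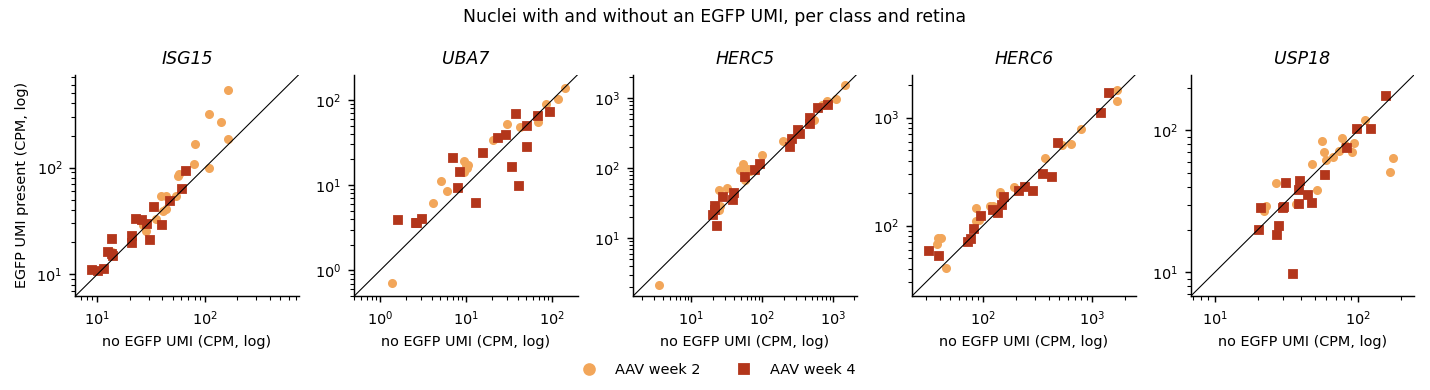
CPM of each gene in nuclei with an EGFP UMI (vertical) against that in nuclei without one (horizontal) of the same class and AAV-injected retina, on log axes. The diagonal marks equal levels, and 2 points of UBA7 with 0 CPM in 1 of the sets are not drawn. Points lie on both sides of the diagonal, with median ratios between 0.964 for USP18 and 1.34 for UBA7.

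The rest of the pathway was described through lists of genes by role, of which 52 genes were found by symbol. Among the other conjugation enzymes, TRIM25, a ligase for ISG15 and for the RNA sensor RIG-I, was called higher in 9 of 9 classes at week 4. In rods it stood at 12.7 and 23.5 against 0.942 and 0.992 CPM (log2 fold change 4.35 ± 0.397, adjusted p = 0.00546), and over classes its fold change ran from 1.67 to 5.31. UBE2L6, the E2 enzyme, was called in 7 of 9 classes and reached 37.4 and 56.3 against 3.46 and 2.88 CPM in Müller cells (3.85 ± 0.268, adjusted p = 0.000151). It missed the threshold in cones (1.20, adjusted p = 0.115) and microglia (1.95, adjusted p = 0.0684). The ligase ARIH1 was called in 0 of 9 classes (between -0.01 and 0.23), and the E2 enzymes UBE2E1 and UBE2E2, which mainly serve ubiquitin, were called higher in 2 and 1 of 9 classes, with UBE2E2 lower in 1. UBA7, UBE2L6 and the ligases HERC5, HERC6 and TRIM25 were thus each called higher in 7 or more of the 9 classes.

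Relatives that serve other modifiers were mostly not called. Of 63 pairs of gene and class among the E1 enzymes of ubiquitin, SUMO, NEDD8, UFM1 and autophagy, 1 was called higher (UBA6 in astrocytes) and 1 lower (NAE1 in Müller cells), with a median log2 fold change of -0.09. Of 80 pairs among the modifiers NEDD8, SUMO, UFM1, URM1, ATG12 and ubiquitin, 1 was called higher (ATG12) and 1 lower (UBB), both in Müller cells. The 6 other proteases reported to act on ISG15 (USP2, USP5, USP13, USP14, USP16 and USP21) gave 0 higher and 2 lower calls in 54 pairs, USP2 in cones (-0.64, adjusted p = 0.0483) and USP13 in microglia (-2.41, adjusted p = 0.0155). None of them was called higher, unlike USP18. The single calls of NAE1, UBA6, ATG12, UBB, USP2, USP13 and HERC3 were singled out after their values were seen.

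Transcripts of the interferon signalling that USP18 restrains were called higher in 38 of 76 pairs of gene and class and lower in 0. IRF9 and STAT2, which carry the interferon signal to the nucleus, were called higher in 7 of 9 classes each (medians of 2.75 and 2.10 on the log2 scale), and the receptor chains IFNAR1 and IFNAR2 in 6 each (medians of 0.78 and 0.99). JAK1 was called in 1 class and TYK2 and SKP2 in none. Among proteins reported as ISG15 targets, 46 of 87 pairs were called higher and 0 lower. MX1, IFIH1 (MDA5), EIF2AK2 (PKR), PML and RIGI, which are themselves interferon-stimulated, were called in 9 of 9 classes each, with medians from 2.02 for PML to 5.82 for IFIH1. EIF4E2, PCNA and BECN1 were called in 0 classes and IRF3 in 1. The LFA-1 chains ITGAL and ITGB2, receptor of free ISG15 and carried by leukocytes, were called higher in rods and in no other class tested, where the leukocyte markers given above were higher too.

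Across the 72 points of 9 classes and 8 retinas, the genes whose log2(CPM + 1) followed each member most closely were taken from 10452 genes. For ISG15 these were DDX60 (Pearson r = 0.956), EIF2AK2 (0.947) and FOXS1 (0.945), and for UBA7 OAS2 (0.946), LGALS3BP (0.934) and RIGI (0.934). HERC5 was followed by EPSTI1 and OAS2 (0.954 each), HERC6 by PARP12 (0.975) and B2M (0.966), and USP18 by DDX60 (0.890), IFIH1 and IFI6 (0.879 each). Among the members, HERC5 and HERC6 were closest (0.958) and UBA7 and USP18 least alike (0.702). Points from 1 retina share library and depth, and all points share the split into AAV-injected and vehicle-injected retinas, so these values are descriptions.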

How the data were processed

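Nuclei of 8 frozen pig retinas were captured in droplets, 4 lanes per retina. Per the labels, Cell Ranger 8.0.0 was run by the authors against Sscrofa11.1 with EGFP added, and the raw UMI counts of its filtered barcodes were deposited without cell types. The values are nuclear RNA, and CPM is not adjusted for gene length. Barcodes with a high mitochondrial share for their number of detected genes were removed by the miQC approach (posterior 0.75). A nucleus was assigned to a class by a mixture of marker profiles at a posterior of 0.95 with at least 3 marker UMIs and 2 of the class's genes. Counts were summed per retina and class. Week 4 was tested with edgeR 4.0.16 in R 4.3.3 (quasi-likelihood, TMM, filterByExpr, Benjamini-Hochberg per class, threshold 0.05), and the difference between weeks over 6 animals with the eyes of each week 2 animal summed. The genes named are the 5 members and each listed gene past the threshold in 5 or more of the 9 classes tested, with neighbours of the members on the genome, while counts describe the other listed genes. The members and lists were chosen with earlier results of these data known. Alternatives covered scaling, the filter on low counts, the gate, depth, EGFP, DESeq2 1.42.0 and leaving out each replicate. Each SE is the absolute log2 fold change divided by the square root of edgeR's quasi-likelihood F statistic. Intervals are exact at 95% and cover counting error only. Scripts were tested on simulated data. Some genes of the lists are counted in the list totals but are not reported singly here.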

Additional observations from a re-analysis of the deposited data

How the results depend on the processing

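Under every alternative run, between 42 and 44 of the 45 pairs of gene and class were called higher at week 4 (42 as reported), and 42 to 43 with any 1 replicate left out. No pair changed sign. A lone sample left in an arm is assumed to vary like the other group. The pairs that gained a call were ISG15 in microglia, with adjusted p-values of 0.00251 without the filter on low counts, 0.0411 with all deposited barcodes and 0.0267 in 1 fit on 6 animals (edgeR), and USP18 in astrocytes, with 0.0197 without the filter and 0.033 without AAV replicate 1. Over all genes, 6679 gene by class calls were higher and 5651 lower. Without the filter 8496 were lower, and with 1 replicate left out the counts ran from 3695 to 6938 and from 2571 to 7252. For the difference between weeks, edgeR called 0 of 45 pairs and DESeq2 4, and leaving out 1 replicate gave 0 to 7. Over all genes the count was 966 with edgeR, 2983 with DESeq2, and 505 to 5691 with 1 replicate left out. The median share of AAV nuclei with a UMI of a gene at week 4 was 3.97% at 1000 UMIs and 7.9% at 2000 UMIs. The week 2 median log2 ratio of 5.55 stayed between 5.28 and 5.67, with 44 of 45 pairs over 2-fold in the left eyes alone. No paired analysis was possible because replicate numbers name different animals in each group and the eyes of week 2 belong to 1 animal per arm. With 2 animals per arm, 62 and 65 vehicle microglia and 0 to 3 vehicle UMIs in several pairs, small folds could not be resolved there.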

Other observations

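Classes outside the tests carried the genes as well. T and NK cells were found almost only in AAV-injected retinas of week 4 (1132 and 882 nuclei), and held HERC6 at 793 and 1027 CPM and HERC5 at 426 and 663 CPM. Endothelial cells of the same retinas held HERC6 at 608 and 1023 CPM against 33.3 and 54.0 CPM in the vehicle-injected retinas, and pericytes held 103 and 446 CPM against 13.1 and 20.3 CPM. HERC5 in endothelial cells stood at 385 and 416 against 4.75 and 21.6 CPM. B and plasma cells of the AAV-injected retinas held USP18 at 110 and 158 CPM and UBA7 at 61.5 and 44.3 CPM. None of these classes had the 20 nuclei in every week 4 retina that a test required: T, NK, B and plasma cells were too few in the vehicle-injected retinas, endothelial cells and pericytes in an AAV-injected one (15 nuclei each).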
